A study of Homo sapiens with 12 samples.

Results

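The microRNAs miR-23, miR-24 and miR-27 are made from a pair of related clusters, each holding 1 hairpin of every kind: MIR23A, MIR27A and MIR24-2 on chromosome 19, and MIR23B, MIR27B and MIR24-1 on chromosome 9. The strands described here are those with a name starting in miR-23a, miR-23b, miR-24, miR-27a or miR-27b that had a row in both of the authors' deposited tables. There were 6 of them among 753 microRNAs present in both tables, and 952 in either. They are hsa-miR-24-3p, hsa-miR-24-2-5p, hsa-miR-27a-5p, hsa-miR-27b-5p, hsa-miR-23a-5p and hsa-miR-23b-5p, written below without the species prefix. They were thus chosen by name, with earlier results of these data known, and selected on having a row in both tables. The names of both tables say that low values were filtered. The scarcest strand inside this rule was miR-23b-5p, with a mean of 1.37 CPM (counts per 1000000 reads) over the 6 libraries of the first table and 1.66 CPM over those of the second. Just outside it was miR-24-1-5p, which had a row for ZSWIM8 KO against WT only, at 0.500 CPM. The 3p strands of the MIR23A, MIR23B, MIR27A and MIR27B hairpins had no row in either table and were not analysed here. Whether the counting or the filter left them out is not stated in the sources used here. CPM values are relative to the rows of the tables, which sum to 1000000 in each group.

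Small RNA was sequenced from K562, a human erythroleukaemia cell line, in 12 libraries, with 3 biological replicates in each of 4 groups, per the depositors. sgCYRANO cells carried a guide that targets CYRANO, a long non-coding RNA, and sgNT cells a non-targeting guide. ZSWIM8 KO cells had the genotype ZSWIM8-/-, their WT counterparts were wild type, and both are labelled as having received no guide. The sources used here do not say whether the knockout was 1 clone or a pool, and p-values measure only the spread between these libraries. ZSWIM8 is the part of a Cullin-RING E3 ubiquitin ligase that recognises its substrates, and is needed for target-directed microRNA decay, in which a target that pairs extensively with a microRNA triggers its destruction. CYRANO acts on miR-7 in this way. The series asks which microRNAs respond when either is disrupted.

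A microRNA hairpin is cut by Drosha and Dicer into a duplex of a 5p and a 3p strand. Usually 1 strand is kept in an Argonaute protein as the guide and its partner, the passenger, is lost. For these hairpins the 3p strands are generally described as the guides. miR-24 is known in erythroid cells as an inhibitor of haemoglobin accumulation through the activin receptor ALK4, the chromosome 19 cluster is a target of the myeloid factor PU.1, and miR-27 is known as a repressor of RUNX1 in megakaryocytic cells. miR-27 is also a classic substrate of viral RNAs that cause microRNA decay. No level is given here for the 3p strands of miR-27.

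The mature strands are shown because their seeds and copies bear on which rows can be told apart. Sequences are RefSeq entries on GRCh38.p14, read 5′ to 3′, with the seed (bases 2 to 8) in capitals. All 6 strands matched an entry by name, and miR-24-1-5p is added for comparison.
miR-24-3p: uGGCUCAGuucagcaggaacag
miR-24-2-5p: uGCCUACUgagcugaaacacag
miR-24-1-5p: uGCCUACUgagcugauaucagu
miR-27a-5p: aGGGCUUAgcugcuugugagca
miR-27b-5p: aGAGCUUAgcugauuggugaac
miR-23a-5p: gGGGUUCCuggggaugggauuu
miR-23b-5p: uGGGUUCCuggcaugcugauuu

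Both miR-23 5p strands share a seed, and so do both miR-24 5p strands. Counted from 1 at the 5′ end of the strand named first, miR-27a-5p and miR-27b-5p were identical at 14 of 22 positions and differed within the seed by G3A. miR-23a-5p and miR-23b-5p were identical at 15 of 22 positions, and miR-24-1-5p and miR-24-2-5p at 16 of 22. Reads of these 5p pairs can therefore be told apart by sequence. miR-24-3p cannot be split in this way, since the same 22 bases lie in both miR-24 hairpins. How the authors counted reads with more than 1 possible origin is not stated in the sources used here, and the share of each hairpin in miR-24-3p is uncertain.

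Both miR-24 hairpins are shown, with the mature arms in capitals, because the shared 3p arm and the distinct 5p arms are the basis of the comparison of arms.
MIR24-2: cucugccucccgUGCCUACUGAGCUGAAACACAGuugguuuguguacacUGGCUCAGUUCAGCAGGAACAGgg
MIR24-1: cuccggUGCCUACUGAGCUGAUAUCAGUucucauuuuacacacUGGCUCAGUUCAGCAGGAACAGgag

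On GRCh38.p14 the chromosome 19 hairpins lie on the - strand within 373 bases, at chr19:13836287-13836659. MIR23A comes first, then MIR27A after 69 bases and MIR24-2 after a further 80 bases. The mature miR-27a-5p lies at chr19:13836487-13836508, miR-24-2-5p at chr19:13836326-13836347, miR-23a-5p at chr19:13836630-13836651 and this copy of miR-24-3p at chr19:13836289-13836310. In GENCODE 29 these hairpins overlap an exon of 1 transcript of the non-coding gene AC020916.1. The chromosome 9 hairpins lie on the + strand within 881 bases, at chr9:95085208-95086088, where MIR27B follows MIR23B after 140 bases and MIR24-1 follows after a further 479 bases. There miR-27b-5p lies at chr9:95085463-95085484, miR-23b-5p at chr9:95085227-95085248 and the second copy of miR-24-3p at chr9:95086064-95086085. MIR23B and MIR27B are intronic in the protein-coding gene C9orf3, while MIR24-1 overlaps an exon of 1 C9orf3 transcript.

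**Figure D1:**
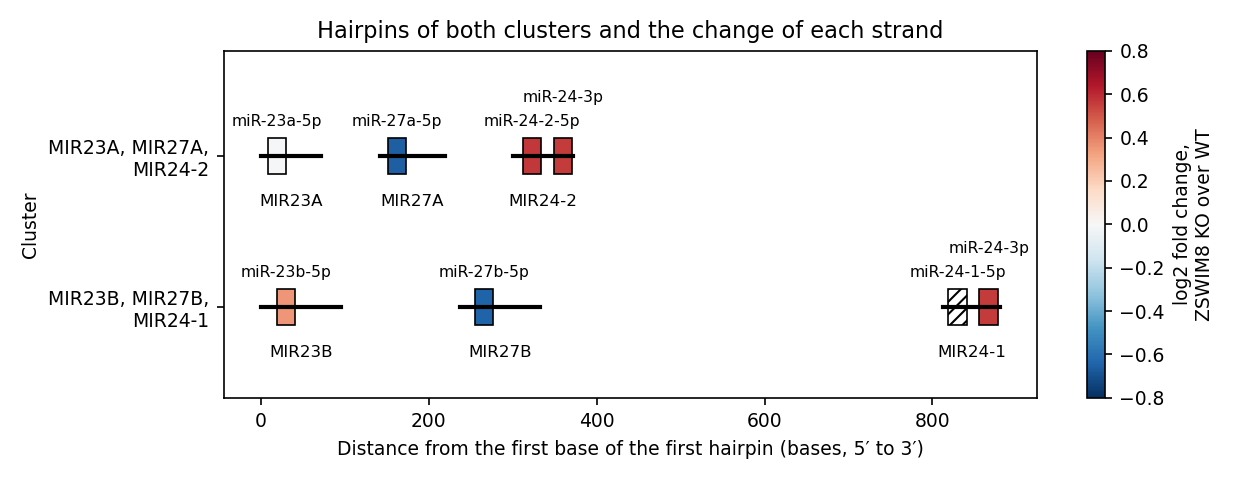
Hairpins (black lines) and mature strands (boxes) of both clusters, by distance in bases from the first base of the first hairpin, in the direction of transcription. Box colour is the log2 fold change of ZSWIM8 KO over WT. The hatched box is miR-24-1-5p, which had a row in 1 table only, and 3p strands that were not analysed are not drawn. Both miR-27 5p strands are blue, at -0.66 and -0.65. miR-24-3p is red, at 0.56, and its 1 value is drawn at both copies, which were not measured apart. Colour does not show the calls: miR-24-2-5p, at 0.57, and miR-23b-5p, at 0.35, are also tinted red and did not pass.

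The values are the authors' deposited edgeR comparisons, with 837 microRNAs in the table of sgCYRANO and sgNT and 868 in that of ZSWIM8 KO and WT. The headers give no direction, and fold changes are taken here as sgCYRANO over sgNT and ZSWIM8 KO over WT, because miR-7-5p, known to be lost through CYRANO, is then higher in sgCYRANO and in ZSWIM8 KO. With the opposite reading, the means of both groups would swap and each change would have the other sign. Group means were recovered from the deposited columns, and no level of a single library is printed except where a mean was low enough to be split into whole reads. The 12 library totals read from the smallest steps were between 861000 and 2490000 reads, with group totals of 5290000 for sgCYRANO, 5490000 for sgNT, 7060000 for ZSWIM8 KO and 3810000 for WT. Values after ± are standard errors that the deposited p-values imply, and the 95% intervals were computed here from them. As a check of the cell type, miR-486-5p, a microRNA of erythroid cells, had 13387 CPM in ZSWIM8 KO and 14449 CPM in WT, and miR-451a had 956.3 CPM in ZSWIM8 KO and 574.5 CPM in WT. Of 10 markers of other cell types 5 had a row in each table. The liver marker miR-122-5p was at 2.08 CPM or less and the muscle marker miR-1-3p at 1.31 CPM or less in each group. miR-200c-3p, an epithelial marker, lay between 68.8 and 94.6 CPM over the 4 groups, and miR-142-3p, listed as a lymphoid marker and known across blood cells, between 2331 and 2778 CPM. miR-375-3p, an endocrine and epithelial marker, had 49.2 CPM in ZSWIM8 KO and 3.70 CPM in WT (adjusted p = 0.201, edgeR), and its part in the results was not tested.

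**Figure D2:**
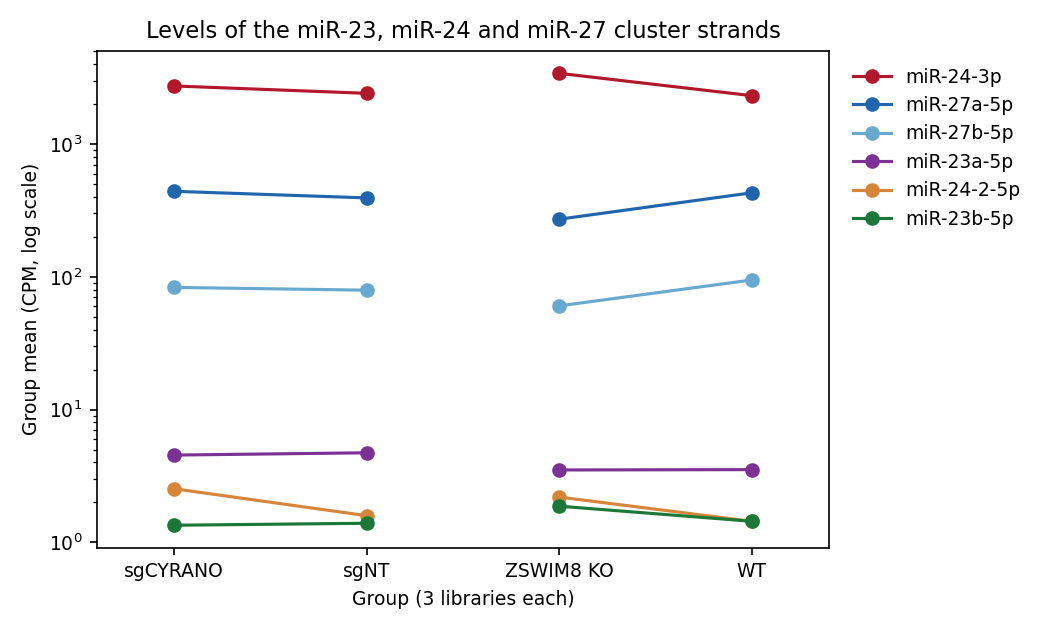
Group mean levels of the 6 strands in CPM on a log scale, each point the mean of 3 libraries, with lines joining the groups of 1 comparison. The order of the 3 strands over 10 CPM is the same in each group, and the sharpest slopes among them are in the ZSWIM8 KO and WT pair, where miR-24-3p had 3410 CPM in ZSWIM8 KO and 2315 CPM in WT.

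In ZSWIM8 KO the 3 strands at 10 CPM or more changed in opposite directions. miR-24-3p rose 1.47-fold, while miR-27a-5p fell to 0.633 and miR-27b-5p to 0.639 times their WT levels. The other 3 strands, all under 10 CPM, did not pass the test. Thus 1 of 6 strands rose and 2 of 6 fell at an adjusted p under 0.05, where 9.91% of all 868 microRNAs passed, 4.72% higher and 5.18% lower. The 3 called strands were all at 10 CPM or more, where calls are more frequent: 38 of 304 microRNAs were called higher and 32 lower. The median log2 fold change was 0.17 over the 6 strands and 0.08 over all 868. In RNA from whole cultures, fewer cells with a strand and less of it per cell cannot be told apart.

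hsa-miR-24-3p, the strand that both clusters encode, had a group mean of 3410 CPM in ZSWIM8 KO and 2315 CPM in WT. The authors' deposited table gave a log2 fold change of 0.56 ± 0.11 (95% interval 0.34 to 0.78, edgeR quasi-likelihood test, adjusted p = 3.02e-05). By mean level it ranked 26 of 868, and its rise was the 26th by size of the 38 rises at 10 CPM or more.

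hsa-miR-27a-5p, the 5p strand of the middle hairpin on chromosome 19, had 271.7 CPM in ZSWIM8 KO and 429.5 CPM in WT. Its log2 fold change in the authors' deposited table was -0.66 ± 0.15 (95% interval -0.95 to -0.37, edgeR quasi-likelihood test, adjusted p = 0.000212). hsa-miR-27b-5p, its counterpart from chromosome 9, had 60.4 CPM in ZSWIM8 KO and 94.7 CPM in WT. For this strand the authors' deposited table gave -0.65 ± 0.22 (95% interval -1.09 to -0.21, edgeR quasi-likelihood test, adjusted p = 0.043). Among the 32 falls at 10 CPM or more these were the 18th and the 19th by size. No spread over single libraries can be given for these 3 strands. Read with 4 denominator degrees of freedom in place of the larger number that a variance shared between microRNAs gives, the deposited F left 0 of the 3 calls, with adjusted p-values of 0.208, 0.253 and 0.436. The call for miR-27b-5p was also lost under Benjamini-Yekutieli adjustment (adjusted p = 0.316).

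**Figure D3:**
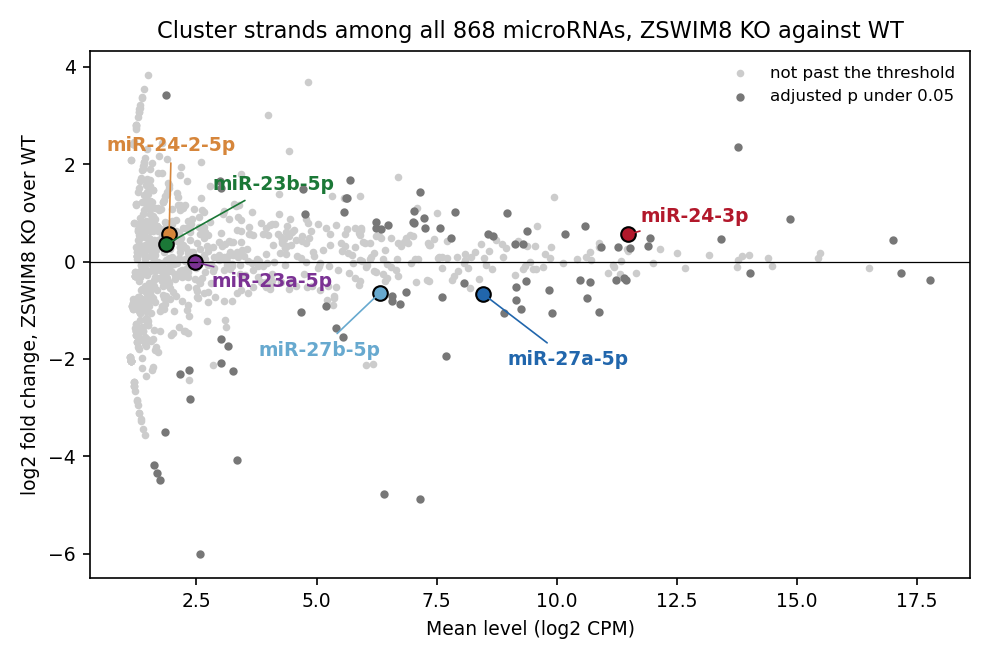
Log2 fold change of ZSWIM8 KO over WT against mean log2 CPM for all 868 microRNAs, with those past an adjusted p of 0.05 in dark grey and the 6 cluster strands in colour. miR-24-3p lies above 0 at 0.56, miR-27a-5p and miR-27b-5p lie below it at -0.66 and -0.65, and the 3 scarce strands lie at the left among the scattered low values.

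The unequal change within the clusters was measured as the difference of log2 fold changes within ZSWIM8 KO against WT, over 15 pairs of strands. The errors treat the strands of a pair as independent, although both come from the same libraries. miR-24-3p over miR-27a-5p was 1.22 ± 0.19, or a ratio 2.33 times as high in ZSWIM8 KO as in WT (95% interval 1.81 to 3.0). miR-24-3p over miR-27b-5p was 1.21 ± 0.25, a ratio 2.31 times as high (95% interval 1.64 to 3.25). These were the only 2 of the 15 pairs whose 95% interval left out 0. Between the counterparts of both chromosomes the difference was small: miR-27a-5p minus miR-27b-5p was -0.01 ± 0.27, with a 95% interval of -0.54 to 0.51. As a ratio of the chromosome 19 strand's fold change to that of the chromosome 9 strand, this interval runs from 0.688 to 1.43.

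The scarce 5p strands gave wide intervals. miR-24-2-5p, the partner of miR-24-3p in the chromosome 19 hairpin, had 2.19 CPM in ZSWIM8 KO and 1.44 CPM in WT. These means correspond to 15 reads over the 3 ZSWIM8 KO libraries, whose split could not be resolved, and to 2, 1 and 2 reads in the WT libraries, from the largest total to the smallest. Its log2 fold change in the authors' deposited table was 0.57 ± 0.83, so values from -1.05 to 2.18 lie within the 95% interval. miR-23b-5p, from the first hairpin of the chromosome 9 cluster, had 1.87 CPM, or 13 reads, in ZSWIM8 KO and 1.44 CPM in WT, again as 2, 1 and 2 reads. Its change was 0.35 ± 0.85 in the authors' deposited table. miR-23a-5p, from the first hairpin on chromosome 19, had 3.51 CPM in ZSWIM8 KO and 3.53 CPM in WT, and the authors' deposited table gave -0.01 ± 0.61 (95% interval -1.20 to 1.18). For each of these 3 strands the interval included a 2-fold change in either direction, so a change of that size was not detectable at this depth.

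The arms of miR-24 could be set against each other in the chromosome 19 hairpin. In ZSWIM8 KO against WT the change of miR-24-3p minus that of miR-24-2-5p came to -0.01 ± 0.83 in log2 units (normal test of the difference over 193 hairpins, adjusted p = 0.999). The 95% interval, -1.64 to 1.63, is too wide to tell whether the arms moved together. miR-24-1-5p had 0, 1 and 3 reads in the ZSWIM8 KO libraries and 0, 0 and 1 in the WT libraries. Its WT mean of 0.387 CPM lay under the limit of 3 counts over the group, 0.788 CPM, so neither a fold nor a difference of arms is given for it. Of all 193 hairpins with both arms in the table, 10 passed this test. For the hairpins of miR-23 and miR-27 the arms could not be compared, since only the 5p strands were analysed.

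For comparison, 141 microRNAs named as 5p strands reached 10 CPM in this table and had a median log2 fold change of 0.16, and 126 named as 3p strands had 0.08. The falls of miR-27a-5p and miR-27b-5p lay below 280 and 279 of the 304 microRNAs at 10 CPM or more. In 63 hairpins with both arms at 10 CPM or more, the arm of lower level had a median of 0.05 and the arm of higher level 0.13, and the lower arm had the smaller log2 fold change in 41 of 63.

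Transcribed from the opposite DNA strand of MIR24-1, the hairpin MIR3074 gives miR-3074-5p, of whose 21 bases 20 are the reverse complement of miR-24-3p.
miR-3074-5p: gUUCCUGCugaacugagccag
miR-3074-5p had 19.5 CPM in ZSWIM8 KO and 13.1 CPM in WT, a log2 fold change of 0.57 ± 0.36 in the authors' deposited table, which did not pass (edgeR, adjusted p = 0.417). Its value lies close to the 0.56 of miR-24-3p. The sources used here do not state whether reads were counted by strand, so reads of the 2 microRNAs may not have been told apart. miR-3074-3p, at 1.66 CPM in ZSWIM8 KO and 1.44 CPM in WT, did not pass either.

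Disruption of CYRANO gave no call among the 6 strands, in a comparison in which 1 of 837 microRNAs passed (0.119%). At an unadjusted p under 0.05 there were 49 microRNAs, 1 of them a cluster strand, miR-24-3p. This strand had 2740 CPM in sgCYRANO and 2412 CPM in sgNT, and the authors' deposited table gave 0.18 ± 0.09 (edgeR quasi-likelihood test, adjusted p = 0.816). miR-27a-5p had 440.7 CPM in sgCYRANO and 393.0 CPM in sgNT, with 0.17 ± 0.11 and an adjusted p of 0.980 (edgeR). miR-27b-5p had 83.2 CPM in sgCYRANO and 79.3 CPM in sgNT, with 0.07 ± 0.15 and an adjusted p of 0.984 (edgeR). The 95% intervals of these 3 strands, 0.0046 to 0.36, -0.05 to 0.38 and -0.23 to 0.37, leave out a 1.5-fold change in either direction. They rest on a variance shared between microRNAs and do not show the spread of each strand.

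Among the scarce strands, miR-24-2-5p had 2.53 CPM in sgCYRANO, from 1, 4 and 8 reads in the libraries from the largest total to the smallest, and 1.59 CPM in sgNT, from 5, 0 and 4 reads. The ranges of reads overlapped, and the authors' deposited table gave 0.63 ± 0.78. miR-23b-5p had 1, 3 and 3 reads in sgCYRANO and 4, 4 and 0 in sgNT, for means of 1.34 and 1.39 CPM. miR-23a-5p had 4.54 CPM in sgCYRANO and 4.72 CPM in sgNT. Their log2 fold changes in the authors' deposited table were -0.05 ± 0.92 and -0.06 ± 0.53, and neither passed. In this comparison the difference of miR-24-3p minus miR-27a-5p was 0.02 ± 0.14 (95% interval -0.26 to 0.30), and of miR-24-3p minus miR-27b-5p 0.11 ± 0.18 (95% interval -0.23 to 0.46). Each of the 15 pairwise intervals included 0.

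**Figure D4:**
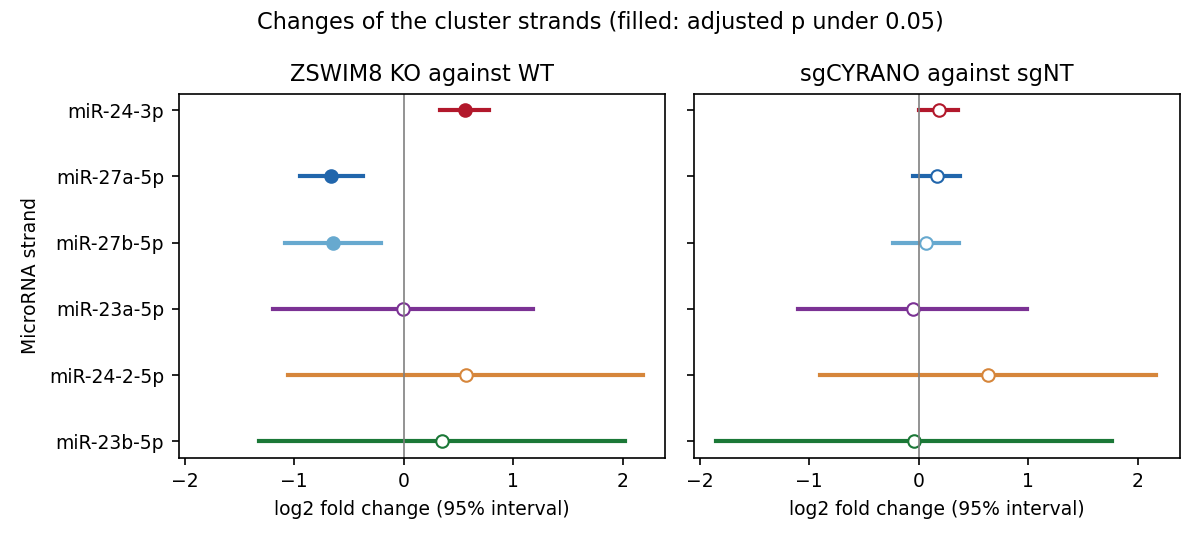
Log2 fold changes of the 6 strands with 95% intervals, for ZSWIM8 KO against WT (left) and sgCYRANO against sgNT (right), with filled points for an adjusted p under 0.05. Filled points are seen for miR-24-3p, miR-27a-5p and miR-27b-5p on the left and for no strand on the right, and the 3 scarce strands have intervals over 2 log2 units wide in both.

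Whether the response to ZSWIM8 loss differed from that to CYRANO disruption was tested as the difference of both log2 fold changes, adjusted over 753 microRNAs, of which 6.64% passed. The comparisons share no library. miR-27a-5p passed, at -0.83 ± 0.18 (normal test, adjusted p = 0.000319), from log2 fold changes of -0.66 in ZSWIM8 KO and 0.17 in sgCYRANO. miR-27b-5p had a like difference of -0.72 ± 0.27 that did not pass (adjusted p = 0.0931), and it passed when both comparisons were centred on their medians (adjusted p = 0.0237). For miR-24-3p the difference was 0.37 ± 0.15 and did not pass (adjusted p = 0.11), and centring lowered it to 0.22 (adjusted p = 0.537). The scarce strands had differences of -0.07 ± 1.14 for miR-24-2-5p, 0.05 ± 0.81 for miR-23a-5p and 0.40 ± 1.26 for miR-23b-5p.

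**Figure D5:**
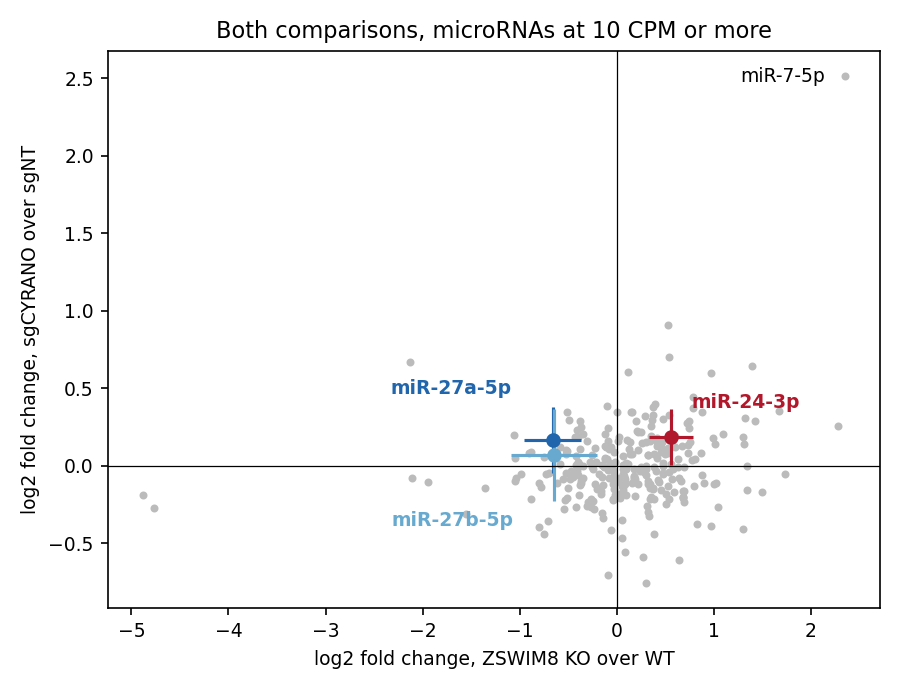
Log2 fold change of sgCYRANO over sgNT against that of ZSWIM8 KO over WT for the 294 microRNAs at 10 CPM or more in both tables, with 95% intervals for the 3 cluster strands among them. miR-27a-5p and miR-27b-5p lie left of 0 at -0.66 and -0.65 and miR-24-3p right of it at 0.56, all of them near 0 on the vertical axis, while miR-7-5p lies far up on both axes at 2.35 and 2.52.

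The cluster strands were also placed beside microRNAs with known roles in decay. miR-7-5p, the strand that CYRANO acts on, had 23494 CPM in ZSWIM8 KO and 4617 CPM in WT, and 34885 CPM in sgCYRANO and 6102 CPM in sgNT. Its direction is no finding, since the reading of the fold changes was set by it. Of 6 listed endogenous decay substrates 4 had a row in each table, and miR-30b-5p and miR-30c-5p had none. Of the 4 measured 1, miR-7-5p, rose and 2 fell in ZSWIM8 KO, where 4.72% of all microRNAs were called higher and 5.18% lower. All 4 had a mean over both groups of 10 CPM or more, where 38 of 304 microRNAs were called higher and 32 lower. The remaining strand, miR-29b-3p, had 0.45 ± 0.34 and did not pass (edgeR, adjusted p = 0.51). The falls were of miR-221-3p, with 5.76 CPM in ZSWIM8 KO and 159.8 CPM in WT, and of miR-222-3p, with 9.10 CPM in ZSWIM8 KO and 270.7 CPM in WT. Their log2 fold changes in the authors' deposited table were -4.76 ± 0.48 and -4.88 ± 0.58, larger in size than that of any of the 6 cluster strands. In sgCYRANO 1 of the 4, miR-7-5p, passed, as did 0.119% of all microRNAs. Besides the miR-27 3p strands, viral RNAs are known to act on miR-17-5p and miR-20a-5p. The authors' deposited table for ZSWIM8 KO against WT gave 0.13 ± 0.08 and -0.09 ± 0.08 for these, and neither passed. miR-128-3p, whose seed overlaps that of the miR-27 3p strands with a shift of position, had 15396 CPM in ZSWIM8 KO and 14312 CPM in WT. Its change of 0.11 ± 0.08 in that deposited table of the authors did not pass. None of the 6 cluster strands shared bases 2 to 8 with an annotated microRNA from outside the clusters.

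Of 8 measured strands known from erythroid and myeloid differentiation, in which miR-24 also has a role, 2 fell in ZSWIM8 KO and 6 did not pass, beside 5.18% of all microRNAs called lower, and 0 passed in sgCYRANO, where 1 of them, miR-210-3p, had an unadjusted p under 0.05 (edgeR, -0.42 ± 0.12 in the authors' deposited table). All 8 had a mean over both groups of 10 CPM or more, where 32 of 304 microRNAs were called lower in ZSWIM8 KO. The falls were of miR-486-3p, at -0.40 ± 0.14, and of miR-223-5p, at -0.38 ± 0.10, as given by the authors' deposited table. The 3p strand of the miR-223 hairpin, miR-223-3p, a regulator of granulocyte formation, had 0.30 ± 0.12 and did not pass (edgeR, adjusted p = 0.0779). Here it was the scarcer arm, with 1039 CPM in ZSWIM8 KO and 844 CPM in WT. miR-223-5p had 2080 CPM in ZSWIM8 KO and 2712 CPM in WT. The median log2 fold change of these 8 strands was 0.12 in ZSWIM8 KO against WT.

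By the distance between both log2 fold changes, over 2 comparisons and 294 microRNAs at 10 CPM or more, the strands most like miR-24-3p were let-7d-5p, miR-548h-5p and miR-1843, at distances of 0.03, 0.03 and 0.04. None of these passed the test in ZSWIM8 KO (edgeR, adjusted p-values of 0.179, 0.449 and 0.342). Nearest to miR-27a-5p were miR-16-2-3p at 0.09, miR-27b-5p at 0.10 and miR-183-5p at 0.14. For miR-27b-5p they were miR-16-2-3p at 0.08, miR-33b-3p at 0.08 and miR-27a-5p at 0.10. Each miR-27 5p strand was thus among the 3 nearest of the other. miR-16-2-3p, a passenger strand of a miR-16 hairpin, fell by 0.58 on the log2 scale in ZSWIM8 KO (edgeR, adjusted p = 0.000102).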

How the data were processed

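Per the labels' protocols, miRNeasy kits gave total RNA, and NEBNext small-RNA libraries were sequenced. Tools in the submitters' processing notes are STAR, featureCounts, edgeR, bcl2fastq and FastQC 0.11.2, with the build hg19 and no roles or settings. Per the file headers, the authors deposited a log2 fold change and mean log2 CPM, an F statistic (used as a score), a p-value and an adjusted p-value for each microRNA. The design's tests on counts per library, its replicate blocks and its left-out replicates could not be run on these values.

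The deposited adjusted p-values equal those of Benjamini-Hochberg over every row to within 5.5e-08 and 1.09e-06. Group means were recovered by inverting the mean log2 CPM (prior count 2) and the fold change (prior count 0.125), and sum to 1000000 in each group. Each low mean is a sum of whole reads, each library's CPM being rounded to 3 decimals. Sums up to 2.5 CPM matched such sums within 0.0005 CPM for 179 of 179 in sgCYRANO, 182 of 182 in sgNT, 178 of 178 in ZSWIM8 KO and 197 of 197 in WT, where the matching windows cover 1.42%, 1.42%, 2.29% and 0.583% of the range. This gave library totals, which cannot be tied to replicate numbers, and reads of the scarcest strands. Limits of 3 counts cover counting error only.

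Standard errors divide the log2 fold change by the normal deviate that belongs to its deposited p. Differences between comparisons (753 microRNAs), hairpin arms and strands used the root of summed squared errors and a normal reference, with Benjamini-Hochberg adjustment for the first and second. For strand pairs intervals are given. Arms and strands share libraries, and any correlation between their errors was left out. The recovery of group means, the implied errors and the difference test were run on data simulated under their own assumptions. Library totals and read splits were not tested in this way. All strands of the rule are named, with fixed lists and the 3 nearest microRNAs. Members and lists were chosen with earlier results of these data known. Computations used Python 3.11.15, numpy 2.4.6, scipy 1.17.1 and pandas 2.3.3.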

Additional observations from a re-analysis of the deposited data

Results flagged for a closer look

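The change of miR-27a-5p differed between the 2 comparisons. Its log2 fold change in ZSWIM8 KO against WT minus that in sgCYRANO against sgNT was -0.83 (SE 0.18, adjusted p = 0.000319 over 753 microRNAs, normal test of the difference). It was the 1 strand of 6 that passed this test. The errors rest on a variance shared between microRNAs. With 4 denominator degrees of freedom the deposited F no longer called miR-27a-5p in ZSWIM8 KO (adjusted p = 0.253). The difference was not retested in that way.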

How the results depend on the processing

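The calls of miR-24-3p, miR-27a-5p and miR-27b-5p in ZSWIM8 KO remained with only microRNAs at 10 CPM or more tested, and with centring on the median or the trimmed mean. The median shift was 0.13, and centred on it the 3 changes were 0.43, -0.79 and -0.78. Over all microRNAs the split was then 30 higher and 62 lower, against 41 and 45 in the deposited calls, and with only microRNAs at 10 CPM or more tested it was 62 higher and 40 lower. Read with 4 denominator degrees of freedom, the deposited F gave 3 calls in all and 0 among the 6 strands. Benjamini-Yekutieli adjustment gave 54 calls, 2 of them cluster strands. Centring turned the difference between comparisons for miR-23a-5p to -0.10, within its error, and brought that of miR-27b-5p, at -0.87, past the threshold. The 39 differences recomputed with errors from F kept their side of the threshold. The 24 group means, which carry no test, changed little without the prior count. No paired analysis was possible because the tables hold no values of single replicates, and for the same reason no replicate was left out.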
